A study of Mus musculus with 6 samples.

Results

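The windows described here are stretches of 1 kb of the mouse genome in which DNA methylation was higher in obstructed kidneys than in sham-operated kidneys. A window qualified if it lay on an autosome, held at least 5 CpG sites with at least 10 covering reads in all 6 libraries, and had a methylation level at least 8 percentage points higher in the lower of the 2 saline libraries than in the higher of the 2 sham libraries. The level of a window in a library is the sum of its methylated reads divided by the sum of its covering reads. Of 46979 windows that could qualify, 816 did (1.74%), and they are called gain windows below. The opposite order, with the higher saline library at least 8 points under the lower sham library, was found in 64 windows (0.136%). The gain windows were chosen by their saline and sham levels, so the sizes of their differences between saline and sham describe that choice and are not tests of it.

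Reduced representation bisulfite sequencing was run on kidney cortex and outer medulla from male, wild-type C57BL/6J mice, in 3 groups of 2 libraries. The saline group had the left ureter tied and cut 7 days earlier (unilateral ureteral obstruction, UUO) and saline given, and the 5AZA group had the same operation with 5AZA injected at 1 mg/kg per day. The sham group had surgery without ligation: sham 1 is labelled as the sham of the 7-day obstruction, and sham 2 as belonging to ischemia/reperfusion, with 48 h in its name. Whether the 2 libraries of a group came from separate mice is not given in the labels, so the spread between them may be technical. Sham 2 had the lowest coverage, with a median of 207 covering reads per gain window against medians of 319 to 392 in the other 5 libraries. It was also below sham 1 in 608 of the 816 gain windows (74.5%) and in 71.7% of all windows. Kidney tissue is a mixture of cell types, and a shift in the share of cell types cannot be told apart here from a change of methylation within a cell type.

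In mammals most methylated cytosines stand in CpG dinucleotides, and both strands carry the mark. Maintenance methylation by DNMT1 copies it after replication, and 5-azacytidine and its relatives are built into nucleic acids and trap methyltransferases, so that the mark is diluted in dividing cells. CpG-dense promoters are unmethylated in most tissues, whereas gene bodies and CpG-poor DNA are mostly methylated, and enhancers often lie between these states. Ureteral obstruction is a widely used model of kidney fibrosis, with tubular injury, infiltration of blood cells and build-up of extracellular matrix.

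Of the gain windows, 7 held the start of a gene that could be placed on the deposited positions. The promoters of 3 of them, Hoxa5, Igf2r and 4933428G20Rik, are shown as examples. At least 7 measured CpGs lie in the 250 bases before each start, as they do at Gm13205, Gm16617 and Gm30283, which are not shown. The sequences are those of RefSeq on GRCm38.p6, at chr6:52204588-52204837, chr17:12769707-12769956 and chr11:97500341-97500590, all on the minus strand and written 5′ to 3′ up to the last base before the start. Capitals mark the CpGs covered in all 6 libraries.
Hoxa5: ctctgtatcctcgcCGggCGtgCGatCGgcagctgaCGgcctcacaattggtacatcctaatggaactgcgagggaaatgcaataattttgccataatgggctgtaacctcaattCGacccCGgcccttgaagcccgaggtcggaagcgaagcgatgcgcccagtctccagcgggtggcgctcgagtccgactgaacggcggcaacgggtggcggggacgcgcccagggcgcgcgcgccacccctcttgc
Igf2r: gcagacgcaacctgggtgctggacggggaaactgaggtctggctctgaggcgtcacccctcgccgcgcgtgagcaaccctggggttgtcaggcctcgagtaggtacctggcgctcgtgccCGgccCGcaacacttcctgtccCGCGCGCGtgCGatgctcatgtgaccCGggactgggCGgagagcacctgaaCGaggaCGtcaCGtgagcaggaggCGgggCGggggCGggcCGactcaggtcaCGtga
4933428G20Rik: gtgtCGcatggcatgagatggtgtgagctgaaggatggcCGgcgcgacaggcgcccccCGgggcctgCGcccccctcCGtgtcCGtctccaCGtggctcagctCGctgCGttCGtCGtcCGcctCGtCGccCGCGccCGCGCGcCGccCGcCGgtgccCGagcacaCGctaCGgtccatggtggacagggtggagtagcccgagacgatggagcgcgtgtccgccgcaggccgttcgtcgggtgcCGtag
Capitals mark 7 of the 28 CpGs in the Hoxa5 stretch, 17 of 27 in that of Igf2r and 26 of 38 in that of 4933428G20Rik. The MspI recognition sequence CCGG, which reads the same on both strands, occurs 2 times in the Hoxa5 stretch, 2 times in that of Igf2r and 3 times in that of 4933428G20Rik, and at least once in 47.1% of 32851 RefSeq stretches of the same length. No such sequence is given for gain windows away from placed starts, since genome sequence of the build mm9 was not used here.

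The gain windows lay mainly in the middle of the methylation range. Their median level was 54.5% in sham 1 and 51.0% in sham 2, 69.2% and 68.0% in saline 1 and 2, and 58.0% and 56.2% in 5AZA 1 and 2. The mean over the 6 libraries was between 40 and 60% in 343 gain windows and between 60 and 80% in 359, which was 10.0 and 7.26 of every 100 windows with such levels. Of the windows with a mean of 20 to 40%, 73 qualified, 3 did so between 5 and 20%, 38 between 80 and 95%, and none under 5% or from 95% upward. A window near either end of the range has less room to differ by 8 points.

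**Figure D1:**
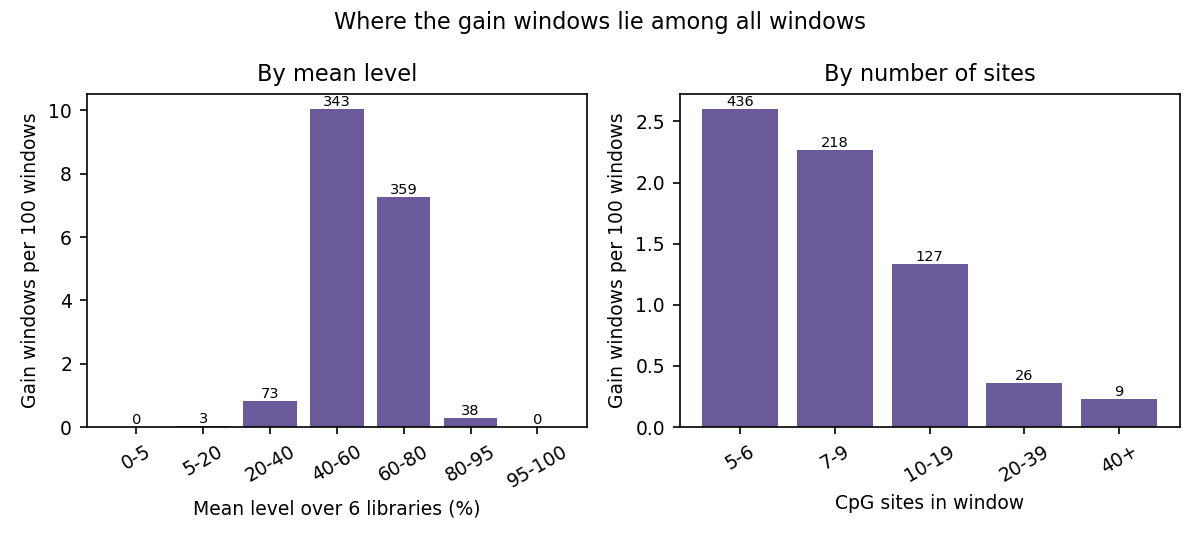
Gain windows per 100 windows that could qualify, by mean methylation level over 6 libraries (left, percent) and by number of CpG sites (right), with the number of gain windows above each bar. The bars are highest at 40 to 60% (10.0 per 100) and at 5 to 6 sites (2.60 per 100).

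Saline exceeded sham by a median of 14.2 points in the gain windows (range 8.36 to 31.95), against 1.13 points in all windows and 2.33 points in the 17095 windows with a mean level of 20 to 80%. Those 17095 windows are not matched to the gain windows in level: the median of the mean level was 39.1% in them and 59.4% in the gain windows. The gap, which is the lower saline level minus the higher sham level, had a median of 10.2 points and a maximum of 24.96. Libraries of the same group differed by a median of 3.10 points in sham, 2.69 in saline and 3.48 in 5AZA, regardless of sign. The binomial standard error of a window's level, which covers counting error only, had a median of 2.19 to 3.31 points by library. Within the windows 6309 of 6771 CpG sites (93.2%) had a higher mean in saline than in sham, against 62.1% of the sites of all windows. Every site did in 512 gain windows (62.7%), against 6.81% of all windows. The rule favours such sites and windows, so these shares describe the choice.

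The 5 windows just inside the limit had gaps of 8.002 to 8.01 points and the 5 just outside had gaps of 7.98 to 7.99 points. The innermost, chr17:25921001-25922000, was at 42.7 and 33.6% in sham 1 and 2 and at 50.7 and 54.1% in saline 1 and 2. The window just outside, chr9:110792001-110793000, was at 30.6 and 43.2% in sham and at 51.2 and 55.4% in saline. The limit therefore separates windows with like levels.

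The largest gap was at chr4:125609001-125610000 (build mm9, as are all positions of windows), with 7 sites. It was at 41.3 and 41.2% in sham 1 and 2, 69.7 and 66.2% in saline 1 and 2, and 49.7 and 40.2% in 5AZA 1 and 2. Next came chr6:84090001-84091000, at 29.9 and 23.9% in sham, 62.5 and 54.7% in saline and 48.9 and 32.5% in 5AZA. In the first of these 5AZA 2 was below both sham libraries, and in the second both 5AZA libraries stood between the other groups.

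At chr6:134199001-134200000 the levels were 53.4 and 50.7% in sham, 76.7 and 80.5% in saline and 58.4 and 57.9% in 5AZA. At chr17:44272001-44273000 they were 54.1 and 48.8% in sham, 77.4 and 80.8% in saline and 55.9 and 62.4% in 5AZA. At chr5:151239001-151240000, which had 10 sites, they were 29.5 and 29.5% in sham, 52.6 and 55.95% in saline and 37.3 and 45.8% in 5AZA. In these 3 windows no 5AZA library reached either the sham or the saline range.

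The sixth and seventh largest gaps fell within genes. Fhod1 encodes a formin that assembles actin filaments, and its window at chr8:107854001-107855000 was at 62.8 and 63.4% in sham, 87.1 and 85.0% in saline and 80.2 and 67.8% in 5AZA. Rere encodes a nuclear receptor coregulator, and its window at chr4:149840001-149841000 was at 55.9 and 52.9% in sham, 77.4 and 78.5% in saline and 60.1 and 57.8% in 5AZA. The 5AZA libraries of the Fhod1 window lay apart from each other, whereas those of the Rere window were both near sham.

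The other 3 of the 10 largest gaps had no placed gene over them. At chr8:59362001-59363000 the levels were 28.3 and 25.2% in sham, 49.6 and 51.5% in saline and 32.5 and 30.1% in 5AZA. At chr13:103782001-103783000 they were 44.4 and 42.2% in sham, 69.7 and 65.3% in saline and 47.4 and 45.1% in 5AZA. At chr8:13248001-13249000 they were 46.8 and 35.6% in sham, 72.0 and 67.6% in saline and 61.3 and 52.8% in 5AZA. Of the 10 windows, 9 had 5 to 9 sites, and their levels rest on 77 to 680 reads.

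Return towards sham was computed as the saline mean minus the 5AZA mean, as a percentage of the saline mean minus the sham mean, so the saline libraries enter both differences. Its median was 73.3% (range -13.5 to 176.6%). For windows chosen with both shams and saline 1 or 2 alone, return computed with the other saline library had medians of 70.4 and 72.6%. Return was 75% or more in 385 gain windows, 25 to 75% in 419 and under 25% in 12. The 5AZA mean was at or below the sham mean in 123 gain windows and at or above the saline mean in 2. The median 5AZA level minus sham was 3.72 points in the gain windows and -0.0709 points in all windows. The median saline level minus sham was 13.6 points in the windows that returned by 75% or more, 14.9 in those that returned in part and 11.7 in the other 12.

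**Figure D2:**
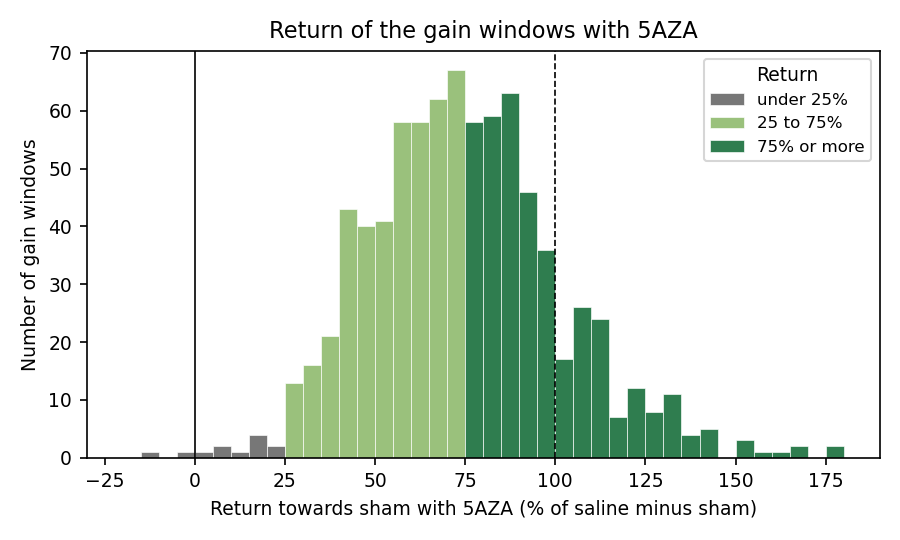
Number of gain windows (vertical axis) by return towards sham with 5AZA, in percent of the saline minus sham difference (horizontal axis). The solid line marks the saline mean and the dashed line the sham mean; the 385 windows in dark green returned by 75% or more and the 12 in grey by under 25%.

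Both 5AZA libraries were below both saline libraries in 770 gain windows (94.4%), against 44.6% of all windows. Both stayed above both sham libraries in 391 (47.9%, against 18% of all windows), and both were below both sham libraries in 38 (4.66%, against 26.2%). A gap of at least 8 points between 5AZA and saline was found in 310 gain windows (38.0%, against 2.19% of all windows). A gap of that size between 5AZA and sham, with 5AZA higher, was found in 18 (2.21%, against 0.0596%). Since saline and sham chose these windows, the counts are a description.

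Methylated and unmethylated counts of all 46979 windows were also fitted with edgeR's quasi-likelihood test and adjusted by Benjamini-Hochberg. For saline against sham, 39 gain windows passed an adjusted p of 0.05 as higher, of 40 windows in all (0.0851% of all windows), and nothing is read from this count because the rule used the contrast. For 5AZA against saline, 149 gain windows passed as lower, beside 1099 of all windows (2.34%), and 640 did at an unadjusted p of 0.05 (78.4%, against 22% of all windows). Nothing is read from these counts either, because the rule chose windows that were high in the same saline libraries. For 5AZA against sham no gain window passed with edgeR (of all windows 0% passed as higher and 0.00213% as lower), and at an unadjusted p of 0.05 there were 100 higher and 2 lower (2.27 and 12.2% of all windows). With limma on the log2 of methylated over unmethylated counts no window passed in any of the 3 comparisons, while at an unadjusted p of 0.05 it had 805 gain windows higher in saline than in sham (9.44% of all windows) and 595 lower in 5AZA than in saline (20.6%). For 5AZA against sham limma had 99 higher (1.1% of all windows) and 4 lower (12.6%) at that threshold. The adjusted calls depend on single libraries: for saline against sham they numbered 15 without sham 1, 0 without sham 2, 0 without saline 1, 8 without saline 2, 78 without 5AZA 1 and 76 without 5AZA 2. The counts over all windows, in either direction, were 21, 0, 0, 11, 92 and 90 in the same order. For 5AZA against saline they numbered 22 without sham 1, 21 without sham 2, 0 without saline 1, 0 without saline 2, 82 without 5AZA 1 and 0 without 5AZA 2, with 104, 101, 0, 0, 962 and 0 over all windows. Without candidate fragment-end sites both counts were 0, also over all windows.

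The difference between saline and sham was then measured in libraries that had no part in the choice. Windows chosen with saline 1 and sham 1 alone at the same limit numbered 2810, and in these saline 2 exceeded sham 2 by a median of 7.40 points, against 2.01 in all windows. Saline 2 was higher in 85.1% of them (76.7% of all windows), and at least 8 points higher in 47.0% (10.6%). Windows with a mean level of 20 to 80% had a median of 3.75 points in this pair, with 82.1% higher and 23.4% at least 8 points higher. The 2058 windows chosen with saline 2 and sham 1 had a median of 9.72 points between saline 1 and sham 2, with 90.4% higher (73.9% of all windows) and 58.5% at least 8 points higher (11%). The median of all windows was 1.84 points, and windows with a mean of 20 to 80% had 3.51 points, with 78.1% higher and 24.0% at least 8 points higher.

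Where sham 1 was the held-out sham, the differences were smaller, in all windows too (medians of 0.491 points for saline 2 and 0.386 for saline 1). The 5147 windows chosen with saline 1 and sham 2 had a median of 3.83 points between saline 2 and sham 1, with 79.7% higher (59.4% of all windows) and 23.4% at least 8 points higher (4.38%), and windows with a mean of 20 to 80% had 1.25 points, 63.5% and 10.7%. The 4964 windows chosen with saline 2 and sham 2 had a median of 3.78 points between saline 1 and sham 1, with 73.4% higher (56.3% of all windows) and 26.6% at least 8 points higher (5.98%), and windows with a mean of 20 to 80% had 1.15 points, 59.8% and 14.3%. In all 4 divisions the held-out difference was smaller than the median of the pair that chose the windows, which was 10.7 to 11.7 points. With both libraries of one group and a lone library of the other, the rule kept 1239 windows without sham 2, 3253 without sham 1, 1487 without saline 1 and 2084 without saline 2.

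The difference between 5AZA and saline was likewise measured with the saline library that the choice did not use. Of 2084 windows chosen with saline 1 and both shams, both 5AZA libraries were below saline 2 in 77.0%, against 58.2% of all windows. The median difference from saline 2 was -6.14 points, against -1.66 in all windows. With edgeR none of the 2084 passed an adjusted p of 0.05, as none of all windows did, and at an unadjusted p of 0.05 there were 579 lower (27.8%, against 15.1% of all windows). Of 1487 windows chosen with saline 2 and both shams, both 5AZA libraries were below saline 1 in 85.2% (57.2% of all windows), with a median of -8.23 points (-1.54 in all windows). Again none passed with edgeR, and 608 were lower at an unadjusted p of 0.05 (40.9%, against 16.6%). Without candidate fragment-end sites these shares fell to 15.2%, against 10.9% of all windows, for the choice with saline 1 and to 25.2%, against 11.6%, for that with saline 2. Among windows with a mean level of 20 to 80%, both 5AZA libraries were below saline 2 in 55.8% and below saline 1 in 54.4%. In this fit the lone saline library is assumed to vary like the other groups, and sham still entered the choice of windows.

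The 12 windows that returned by under 25% had 5AZA means between 5.26 points under and 1.38 points above the saline means. Hs3st3a1 encodes a heparan sulfate sulfotransferase, and the window within it at chr11:64333001-64334000 was at 27.8 and 27.9% in sham, 38.3 and 37.9% in saline and 31.6 and 47.4% in 5AZA, so its 5AZA libraries stood on both sides of saline. The window at chr1:193759001-193760000 was at 68.4 and 72.3% in sham, 87.6 and 85.5% in saline and 84.0 and 89.9% in 5AZA. Rfng encodes a Fringe glycosyltransferase that modifies Notch receptors, and the window 2018 bp downstream of its start, at chr11:120643001-120644000, was at 65.2 and 65.7% in sham, 86.9 and 76.6% in saline and 84.9 and 77.5% in 5AZA. In the last 2 both 5AZA libraries were above both sham libraries.

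Prr5 encodes a subunit of the kinase complex mTORC2, and its window at chr15:84527001-84528000 was at 75.1 and 68.8% in sham, 83.7 and 83.4% in saline and 83.2 and 82.1% in 5AZA. Of its 5 sites, 2 were higher and 2 lower in both saline libraries than in both sham libraries, and with equal read weights its gap fell from 8.39 to 5.07, under the limit. This gene held 3 gain windows among 10 tested, and the other 2 returned by 79.0 and 46.0%. Sox13, a transcription factor gene, and Tmem198, a membrane protein gene, each held another of the 12 windows, which returned by 15.05 and 15.6%. The window at chr2:173391001-173392000 was at 50.7 and 48.1% in sham, 59.3 and 61.7% in saline and 63.9 and 55.1% in 5AZA. With each site's reads weighted alike in all libraries its saline minus sham difference fell from 11.1 to 4.41 points and its gap from 8.57 to 2.53. In all, 6 of the 12 windows had a gap under 8 points with equal read weights.

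By far the most CpG-rich of the 12 was chr7:150645001-150646000, with 58 sites and 1961 to 3905 reads per library. It was at 28.6 and 26.8% in sham, 38.8 and 37.9% in saline and 36.5 and 35.9% in 5AZA. All 3 groups were apart, with 5AZA 8.53 points above sham and 2.13 points below saline. With equal read weights its gap fell from 9.31 to 5.63 points, under the limit, and its saline minus sham difference from 10.7 to 7.52. The nearest placed start was that of Phlda2, 42929 bp away, but a gene whose start was not placed may lie closer or over the window.

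At the other end were the 5 windows with the largest return, 160.3 to 176.6%. Dync1li1 encodes a light intermediate chain of dynein, and the window within it at chr9:114625001-114626000 was at 52.9 and 50.3% in sham, 67.5 and 70.5% in saline and 36.8 and 39.8% in 5AZA. The window at chr12:13191001-13192000 was at 63.4 and 71.1% in sham, 87.5 and 82.0% in saline and 51.3 and 56.5% in 5AZA, on as few as 50 reads. The window at chr11:52147001-52148000 was at 47.0 and 53.0% in sham, 63.7 and 65.3% in saline and 41.1 and 38.9% in 5AZA. In each of these both 5AZA libraries were below both sham libraries.

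The remaining 2 lay within Gm16576, a predicted gene, and Sec14l1, which encodes a lipid-binding protein of the SEC14 family. The Gm16576 window at chr15:79575001-79576000 was at 74.4 and 76.5% in sham, 86.5 and 85.6% in saline and 62.2 and 74.9% in 5AZA. The Sec14l1 window at chr11:116985001-116986000 was at 76.4 and 70.6% in sham, 85.7 and 84.9% in saline and 69.0 and 63.8% in 5AZA. Only the 5AZA libraries of Sec14l1 were both below both shams in this pair, since 5AZA 2 of Gm16576 was between them.

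Gain windows held few measured CpG sites and mostly lay away from placed gene starts. Their median number of measured sites was 6, against 8 in all windows, and 436 of them had 5 or 6 sites. A placed gene start lay in 0.858% of gain windows, in 15.6% of all windows and in 10.5% of those with a mean of 20 to 80%. Starts could be placed only where at least 8 CpGs matched, which favours windows with many sites. Part of this contrast may follow from that. The centre of the window was within 5 kb of a placed start in 65 gain windows (7.97%), against 29.4% of all windows and 28.3% of the windows whose mean lay between 20 and 80%. Within a placed gene lay 272 gain windows (33.3%), against 23.9% of all windows. A window that holds a start was not counted as within that gene, which lowers the share of all windows more than that of gain windows.

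A CpG-dense window whose median site is unmethylated, with at least 10 sites and a median site level under 5%, is the usual state of a CpG island promoter. Site levels were averaged over all 6 libraries, saline included, so the gain rule by itself makes gain windows less likely to fall in this class. Only 1 gain window, the one at Mvk, was of this kind, against 32.9% of all windows. Of the windows with a mean of 20 to 80%, 21.5% were too, so the comparisons with that set here and above include them. Within 1 kb of such windows lay 3.43% of gain windows, against 7.29% of all windows and 14.2% of those with a mean between 20 and 80%, and within 2 kb 5.88%, against 9.002% and 17.1%. Within 5 kb lay 107 gain windows (13.1%), against 13.2% and 22.8%. By chromosome, the share of windows that qualified ran from 1.11% on chromosome 7 to 2.34% on chromosome 4.

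A measured neighbour, an adjacent window with at least 3 sites, was found for 255 of the 816 gain windows. Neighbours that were not gain windows themselves numbered 253; leaving the others out lowers the neighbours' level by construction, as the rule raises that of the gain windows. Saline exceeded sham in these 253 by a median of 3.91 points, against 1.13 in all 88144 windows with at least 3 sites. Both saline libraries were above both sham libraries in 53.8% of these neighbours and in 32.4% of all windows. At 2 kb the median was 1.72 points on the lower-coordinate side and 1.90 on the other, and at 3 to 5 kb it was 0.930 to 1.59. Among neighbours with a mean level of 20 to 80% the median was 6.88 points (138 windows), against 2.89 in all windows of such levels, and both saline libraries were above both sham libraries in 71.7%, against 42.9%. The 95 neighbours at 80% or more had 2.16 points and the 20 under 20% had 0.898.

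**Figure D3:**
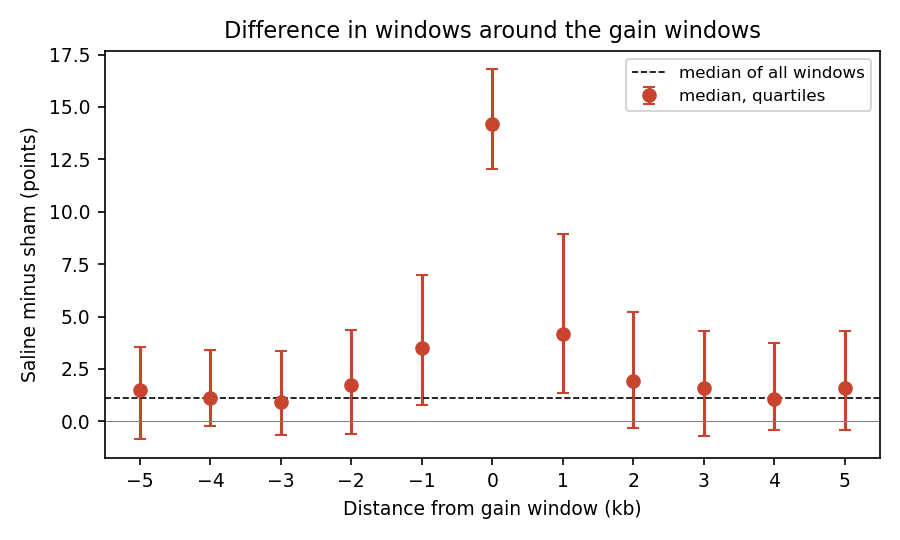
Saline minus sham methylation (vertical axis, percentage points) in measured windows by distance from a gain window (horizontal axis, kb), as medians with quartiles. The median is 14.2 points in the gain windows, 3.52 and 4.16 at 1 kb, and from 2 kb on it stays within 1 point of the dashed line, the median of all windows (1.13).

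Adjacent gain windows formed 16 runs that held 33 windows. The only run of 3 was at chr10:126516001-126519000, where 64 sites over 3 kb were at 26.2 and 26.5% in sham, 38.7 and 38.5% in saline and 31.7 and 27.4% in 5AZA. At chr12:70321001-70323000, in Pole2, a DNA polymerase subunit gene, 18 sites were at 59.0 and 58.1% in sham, 77.8 and 76.7% in saline and 66.5 and 63.3% in 5AZA. In both runs the 2 libraries of sham, and those of saline, differed by far less than the groups did, which the rule favours.

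Among the 5 gain windows with most sites was that of Zfpm1, the gene of the GATA cofactor FOG1, with 77 sites at chr8:124860001-124861000. It was at 41.9 and 39.8% in sham, 53.2 and 54.1% in saline and 38.1 and 48.8% in 5AZA. The window of 2700081O15Rik, a gene without a named function, had 58 sites at chr19:7497001-7498000 and was at 29.1 and 27.2% in sham, 46.2 and 41.3% in saline and 30.7 and 31.4% in 5AZA. At Zfpm1, 5AZA 1 was below both sham libraries and 5AZA 2 above both, while the 5AZA libraries of 2700081O15Rik were both just above sham.

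Hoxa5, a homeobox transcription factor gene of the Hoxa cluster, is the gene named in the title of the series. Its start lay in a gain window with 45 sites at chr6:52154001-52155000, which was at 21.7 and 18.8% in sham 1 and 2, 30.8 and 35.8% in saline 1 and 2, and 22.6 and 20.0% in 5AZA 1 and 2. All 45 sites had a higher mean in saline than in sham, in 37 of them without overlap of the libraries, and the window returned by 92.0%. The 5AZA libraries were within or just above the range of the sham libraries.

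Before the start, at the CpGs in capitals above, the site 135 bp upstream was at 5.0 and 0% in sham, 22.0 and 24.1% in saline and 7.5 and 2.6% in 5AZA. The site 224 bp upstream was at 13.1 and 7.5% in sham, 30.8 and 51.9% in saline and 13.5 and 4.9% in 5AZA. These rest on 27 to 61 reads per library. The CpG inside CCGG 129 bp upstream was at 83.3 and 63.4% in sham, 88.0 and 75.9% in saline and 84.9 and 79.5% in 5AZA, and was thus high in every library beside neighbours that were low in sham.

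**Figure D4:**
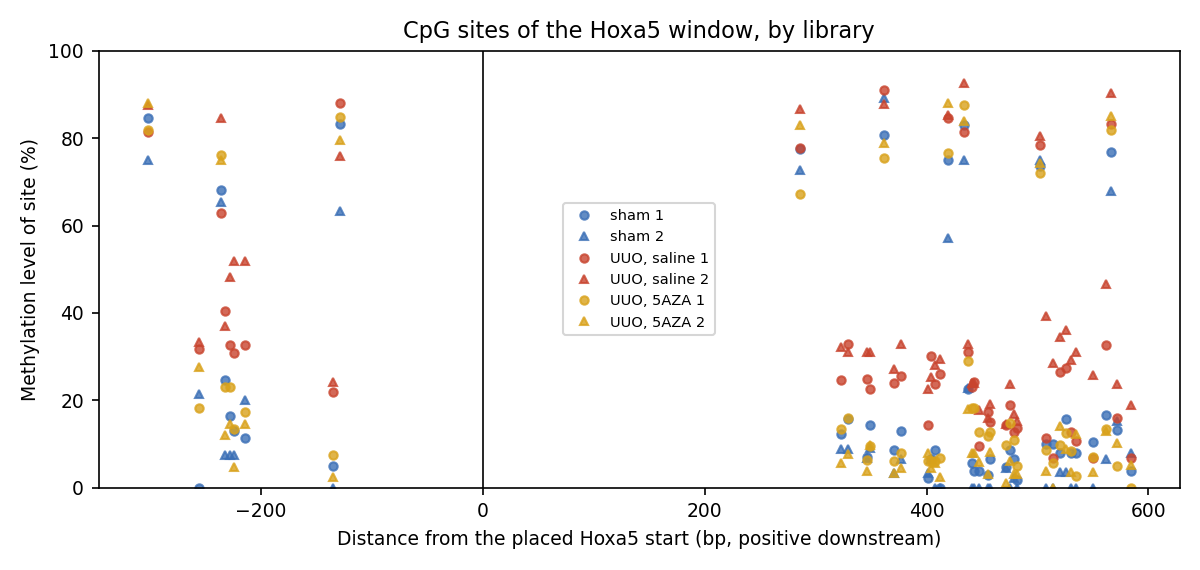
Methylation level (vertical axis, percent) of the 45 CpG sites of the Hoxa5 window by distance from the placed start (horizontal axis, bp, positive downstream), 1 point per site and library. Most sites are low in sham and 5AZA and higher in both saline libraries, while a few sites are high in all 6 libraries.

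High sites at CCGG were a general feature of the placed promoters. CpGs inside CCGG had medians of 70.0 to 74.7% by library over 18273 sites, against 0 to 1.45% at 92073 other CpGs. Levels of windows at gene starts, given below for several genes, pool all CpGs without regard to CCGG. In the promoters of gain windows the 16 sites inside CCGG had medians of 73.1 to 86.0%. The 77 other CpGs there had medians of 22.5 and 35.3% in sham, 44.4 and 47.1% in saline and 27.5 and 31.4% in 5AZA. All 77 had a higher mean in saline than in sham, which the choice of windows favours. Over all placed promoters 61.4% of the other CpGs did. Per the labels' protocols, ends cut by MspI were filled in with methylated dCTP; the part of this step in the levels was not tested. Leaving out candidate fragment-end sites gave 819 windows by the same rule, of which 717 were gain windows. Candidate ends were picked by coverage and level and not by CCGG, with 1 among the 45 sites of the Hoxa5 window. These counts are therefore no test of the fill-in step.

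Igf2r encodes the receptor that clears the growth factor IGF2, and in mice it is imprinted, with methylation of its promoter on the silent allele. Its window at chr17:12962001-12963000 had 54 sites and was at 29.3 and 21.3% in sham, 40.3 and 37.6% in saline and 36.7 and 29.7% in 5AZA. Over the 17 sites upstream of the start, shown above, the mean site level was 29.9 and 23.3% in sham, 39.4 and 45.8% in saline and 32.7 and 27.0% in 5AZA. Over the 37 sites from the start onward it was 32.1 and 20.0% in sham, 33.3 and 33.2% in saline and 40.0 and 31.0% in 5AZA. Upstream saline was above both other groups, whereas downstream sham 1 came close to both saline libraries and 5AZA 1 was the highest library. With equal read weights the return of the whole window changed from 42.3 to 23.9% and its gap from 8.32 to 2.86 points.

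At 4933428G20Rik, a gene without a named function, 48 sites at chr11:97361001-97362000 were at 36.2 and 41.8% in sham, 55.8 and 54.9% in saline and 41.6 and 42.0% in 5AZA. Both sides of its start were higher in saline: the mean of 35 sites upstream was 33.9% in sham and 49.7% in saline, and that of 13 sites downstream was 41.8 and 60.6%. The predicted gene Gm13205, within Casz1, a zinc finger transcription factor gene, had 57 sites at chr4:148326001-148327000, which were at 49.0 and 49.5% in sham, 59.7 and 57.9% in saline and 48.1 and 45.8% in 5AZA. The 5AZA libraries of Gm13205 were below both sham libraries.

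Mvk, the gene of mevalonate kinase in cholesterol synthesis, had 14 sites at chr5:114894001-114895000, which were at 18.5 and 18.3% in sham, 28.9 and 31.0% in saline and 27.2 and 25.3% in 5AZA. Only 1 of its 14 sites was higher in both saline libraries than in both sham libraries. Its saline minus sham difference of 11.6 points fell to 6.81 with equal read weights, 3.97 as the mean of the site levels and 2.79 without candidate fragment-end sites, so this window is uncertain. The other 2 placed starts, of the predicted genes Gm16617 and Gm30283, had 13 sites each and returned by 90.0 and 92.4%.

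Gene lists of the tissue and the study's subject were counted over the windows in genes whose start could be placed. Among the 8374 placed genes, 276 of 18070 windows were gain windows (1.53%). Hox genes had 2 of 26 windows, matrix and mesenchyme genes 4 of 32, Notch pathway genes 2 of 51 and blood cell factors 2 of 18. Nephron genes had 0 of 60, antifibrotic genes 0 of 6 and DNA methylation enzymes 0 of 31. Many genes of the lists could not be placed: 10 of 39 Hox genes, 7 of 25 matrix genes, 14 of 42 nephron genes, 4 of 17 blood cell factors and 2 of 11 antifibrotic genes were.

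Hoxa3, another homeobox gene of the cluster, held a gain window with 13 sites at chr6:52127001-52128000. It was at 29.8 and 31.5% in sham, 43.6 and 43.8% in saline and 34.9 and 29.9% in 5AZA. RefSeq's Hoxa3 also spans the Hoxa5 start, so the Hoxa5 window counts as its second gain window among 14 tested. The window before it, at chr6:52153001-52154000, was at 21.9 and 20.98% in sham, 28.8 and 33.8% in saline and 20.9 and 26.2% in 5AZA, and missed the limit with a gap of 6.91 points.

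Col4a1 encodes a chain of type IV collagen of basement membranes, and 3 of its 9 windows were gain windows. The window at chr8:11279001-11280000 was at 33.3 and 35.5% in sham, 52.0 and 47.8% in saline and 39.9 and 34.4% in 5AZA. The one at chr8:11282001-11283000 was at 43.0 and 42.9% in sham, 51.9 and 56.2% in saline and 46.1 and 46.0% in 5AZA. The one at chr8:11308001-11309000, 4326 bp downstream of the start, was at 56.3 and 52.4% in sham, 76.3 and 69.1% in saline and 64.6 and 56.4% in 5AZA. The window that holds the Col4a1 start had 42 sites and was at 12.4 to 14.1% in all 6 libraries.

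Vim encodes the intermediate filament vimentin of mesenchymal cells. The window 5562 bp downstream of its start, chr2:13501001-13502000, was at 47.3 and 47.6% in sham, 64.6 and 61.1% in saline and 54.8 and 57.6% in 5AZA, and its 2 other windows were at 15.7 to 20.5% in all libraries. The matrix list thus had its 4 gain windows in 2 genes, all away from the start.

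Notch1 encodes a Notch receptor. The window 43842 bp downstream of its start, chr2:26315001-26316000, was at 49.8 and 46.3% in sham, 63.9 and 75.7% in saline and 58.9 and 58.6% in 5AZA, and none of its 6 other windows qualified. Notch1 and Rfng were the 2 gain windows of the Notch list, and the former returned by 51.0% and the latter by 3.61%. The window at the Rfng start had 79 sites and was at 11.6 to 14.1% in all libraries.

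Runx1 and Runx3 encode transcription factors of blood cell development. The Runx1 window 91074 bp downstream of its start, chr16:92606001-92607000, had 22 sites and was at 21.7 and 16.9% in sham, 33.6 and 36.5% in saline and 24.1 and 22.9% in 5AZA. The Runx3 window 23040 bp downstream of its start, chr4:134731001-134732000, had 24 sites and was at 29.2 and 25.4% in sham, 42.6 and 40.0% in saline and 28.7 and 32.2% in 5AZA. The windows at the starts were at 14.9 to 16.4% in Runx1 and 11.7 to 13.1% in Runx3. In both genes the gain window was thus inside the gene and not at the placed start, and no other tested window of either gene qualified.

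**Figure D5:**
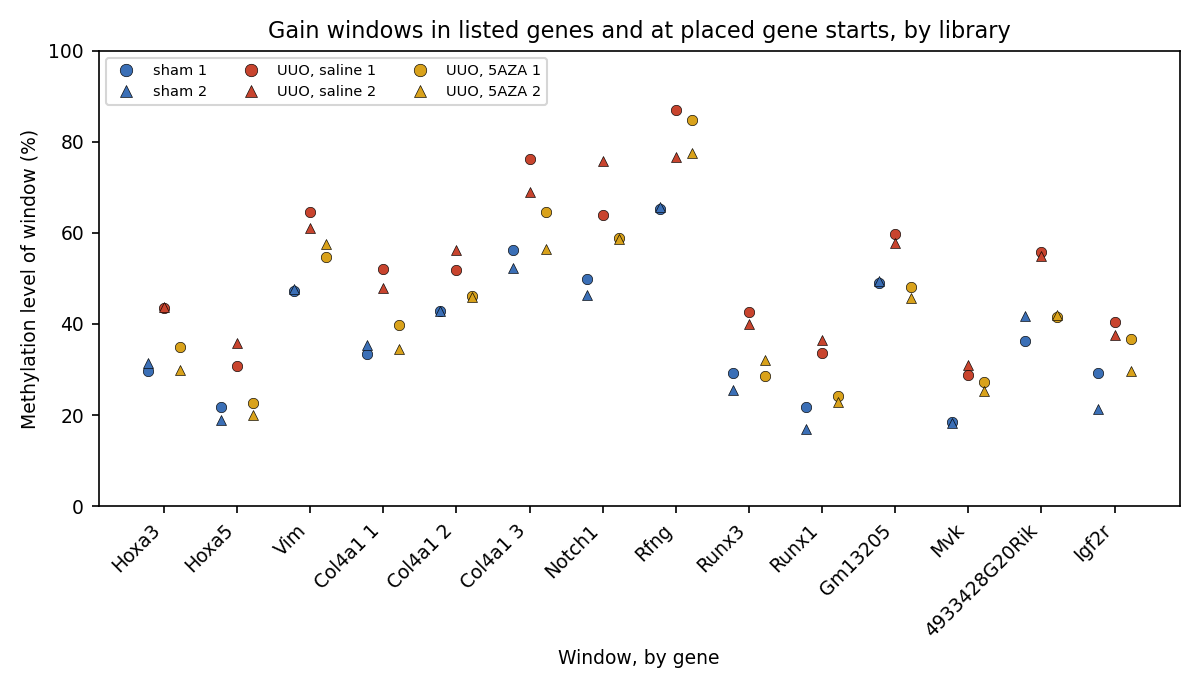
Methylation level (vertical axis, percent) of gain windows in listed genes and at placed gene starts (horizontal axis), 1 point per library, circles for library 1 and triangles for library 2 of each group; Col4a1 1 to 3 are its windows in order of position. Saline is above sham in each by the rule, and 5AZA lies between them or near sham in most, with Rfng near saline.

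Of the genes with several gain windows, Ahdc1, which encodes an AT-hook protein, Col4a1 and Prr5 had 3 each, and 27 others had 2. The 3 windows of Ahdc1, among 12 tested, were at 35.3, 42.4 and 78.4% as sham means, 55.5, 56.9 and 87.4% as saline means and 42.8, 44.8 and 81.2% as 5AZA means. They returned by 62.9, 83.6 and 69.1%.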

How the data were processed

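Reduced representation bisulfite data of 6 mouse kidney libraries were analysed. Per the labels' protocols, DNA was cut with MspI, end-filled with methylated dCTP, size-selected at 40 to 120 and 120 to 220 bp and converted with bisulfite. The submitters' processing notes name Bowtie and mm9. For each CpG site the authors deposited counts of covering and methylated reads, and a fraction that equals their ratio. Covering reads summed to 37728517 to 76730132 per library. No molecular identifiers are described, so errors cover read counting only.

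Sites with at least 10 reads in all 6 libraries were summed over 1 kb windows with at least 5 sites, and the gap limit was 8 points. Windows were fitted with edgeR 4.0.16 (R 4.3.3; common dispersion 0.00558; Benjamini-Hochberg over 46979 windows) and limma 3.58.1, after tests on simulated data. No mm9 genome was used: RefSeq promoters (GRCm38.p6) were placed where at least 8 CpGs matched the deposited site spacing exactly and uniquely, with neighbours shifted alike, which placed 9474 of 15382 promoters with at least 8 CpGs. A window counted as within a gene if RefSeq's gene length reached it and flanking starts kept their spacing within 20 bp. A candidate fragment end is a site whose coverage is within 5% of the sum of its neighbours' coverage. In windows of at least 10 sites with a median site level under 5%, any site at 30% or more also counted. This second route uses levels averaged over all 6 libraries, so leaving out such sites is not a choice by coverage alone. Named windows are the 10 of largest gap, the 5 with most sites, the 5 of largest and 5 of smallest return, those at the limit, the longest runs, those at placed starts and those in listed genes; Pole2, Ahdc1, Prr5, Sox13 and Tmem198 were named after their values were seen. The members and lists were chosen with earlier results of these data known. Alternatives were other site, coverage and gap minimums, shifted windows, site means, equal read weights (added after seeing the data), 4-library fits, leaving out each library and a replicate block.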

Additional observations from a re-analysis of the deposited data

How the results depend on the processing

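The number of gain windows was 1768 with at least 3 sites, 162 with at least 10 sites, 2047 with a gap of at least 5 points and 205 with at least 12, and 1239 to 3253 without any one saline or sham library. Median return was 68.1% with a gap of at least 12 points and 54.7 to 81.7% with a library left out. The count called for saline against sham was 0 with limma (0 of all windows), 77 in a fit on 4 libraries (91 of all), 7 at a coverage minimum of 20 (7 of all), 0 without candidate fragment-end sites and 0 to 78 with a library left out. For 5AZA against saline it was 0 with limma (0 of all), 22 in a fit on 4 libraries (112 of all), 86 at a coverage minimum of 20 (523 of all), 0 without candidate fragment-end sites and 0 to 82 with a library left out. With a replicate block it was 404 (4637 of all); the labels give same-numbered saline and 5AZA libraries no shared origin, and their deviations correlated at 0.155 across windows, with 2 pairs. Of 161 alternative values of saline minus sham in 44 named windows, 136 moved by no more than the replicate spread, some of them not at all. The other 25 moved further, and 0 changed sign (range 2.79 to 31.6 points). A value cannot move where the alternative left out no site of the window, and a window that failed an alternative has no value there. Equal read weights kept a gap of 8 points in 686 of the 816 windows, and the saline mean higher in all 816. The cause of these changes was not tested. Depth limits sham 2 most, with a median binomial error of 3.31 points per window.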

Other observations

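On the X chromosome, which the rule leaves out, 4 of 845 windows (0.473%) had both saline libraries at least 8 points above both sham libraries, and 0 had the opposite order. Their median saline minus sham difference was 17.9 points and their median return was 78.7%.

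A few further gain windows were picked by hand from the 816 after their values were seen; they stand for no gene group, and no such group was counted. Smad3, a transducer of TGF-beta signals, had a window at chr9:63503001-63504000 with means of 78.7% in sham, 90.7% in saline and 79.4% in 5AZA. Smad1, a transducer of BMP signals, had one at 53.3% in sham, 66.6% in saline and 57.1% in 5AZA. Lama5, which encodes a laminin chain of kidney basement membranes, had one at 44.9% in sham, 61.6% in saline and 46.8% in 5AZA. Timp2, a metalloproteinase inhibitor gene, had one at 60.4% in sham, 81.4% in saline and 68.4% in 5AZA. Gnas, an imprinted gene of a G protein subunit, had 2 gain windows among 14, which returned by 27.4 and 132.2%.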
